A study of Homo sapiens with 8 samples.

Results

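The genes described here encode the folding and quality-control machinery of the endoplasmic reticulum (ER) and the sensors that watch over it. The list holds 34 genes named by function: 12 chaperones and their cofactors, 6 protein disulfide isomerases, 9 genes of ER-associated degradation, 3 subunits of the SEC61 translocon, and 4 genes of stress sensing (the sensors ERN1, ATF6 and EIF2AK3, and the transcription factor XBP1). All 34 stand among the 13703 genes listed in either of the deposited tables. The table of the 143B line lists 33 of them, without EIF2AK3, and 31 of these passed the filter on low values given below (DNAJB9 and ERN1 did not). The table of the HOS line lists all 34, of which 33 passed (ERN1 did not).

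The study compared poly(A) RNA of cells labelled sgNAT10, described by its design text as NAT10 knockout cells, with control cells labelled NC. It did so in 143B and in HOS, human osteosarcoma lines, of which 143B was derived from HOS. NAT10 is the enzyme that acetylates cytidine in RNA to N4-acetylcytidine. The 4 groups, 143B sgNAT10, 143B NC, HOS sgNAT10 and HOS NC, had 2 libraries each. The guide sequence, the kind of NC control, and whether the sgNAT10 cells were a clone or a pool are not given in the sources used here. Whether each library is a culture of its own is not labelled either, so the spread behind every p-value may be technical only. Values are FPKM, fragments scaled to transcript length and to the mapped fragments of the library. Levels can be set side by side between genes only roughly, since changes in these values went with length and GC content, as given below. Read depth is unknown. A change is the difference of log2(FPKM + 1), sgNAT10 minus NC, tested within each line with limma over all genes with 1 FPKM or more in 2 or more of the line's 4 libraries. It was called where the Benjamini-Hochberg adjusted p was under 0.05.

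NAT10 itself, on chr11:34105602-34147670 (GRCh38, plus strand), had 9.05 and 7.19 FPKM in the 143B sgNAT10 libraries, against 16.1 and 19.95 FPKM in the 143B NC libraries (log2 change -1.06, SE 0.31, adjusted p = 0.026). The call was lost without 143B sgNAT10 library 1 (adjusted p = 0.11), sgNAT10 library 2 (0.22) or NC library 2 (0.064), and under median-ratio scaling (0.061). In HOS, NAT10 had 21.1 and 19.1 FPKM in the libraries labelled sgNAT10, against 14.9 and 16.2 FPKM in NC (log2 change 0.35, SE 0.10, adjusted p = 0.0054). The mRNA level of NAT10 thus did not go the way of the HOS label, and its change stood at -0.026 after a correction of the log2 values for the length and GC content of transcripts (the length and GC correction). The HOS call was lost without library 1 labelled sgNAT10 (adjusted p = 0.18) and under median-ratio scaling (0.26). A knockout can leave the mRNA of its gene in place, so this level alone does not settle the label, and every direction given for HOS is one between libraries of those labels. Of 7 mesenchymal and bone markers, 6 were listed in 143B and all 7 in HOS. Their summed level was 501 to 792 FPKM in 143B sgNAT10 and 1394 to 1818 FPKM in 143B NC, and 1790 to 1858 FPKM in HOS libraries labelled sgNAT10 and 1434 to 1627 FPKM in HOS NC. Of 4 epithelial markers only EPCAM was listed (2.0 to 3.4 and 0.87 to 1.88 FPKM in 143B sgNAT10 and NC, 18.7 to 20.5 and 15.6 to 18.2 FPKM in HOS). Of 5 blood markers only LYZ was listed, at 6.89 to 7.33 FPKM in 143B sgNAT10 and 0.69 to 1.30 FPKM in NC, and at most 1.19 FPKM in HOS. Of 3 endothelial markers none was listed in 143B and 2 in HOS (sum at most 2.02 FPKM). The part of these shifts in the results was not tested.

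Proteins bound for secretion or for membranes enter the ER through the SEC61 channel, are folded there by chaperones such as BiP (HSPA5), and receive disulfide bonds from isomerases of the PDI family. Chains that fail to fold are trimmed of mannose, moved back through the membrane and degraded by the proteasome. When unfolded chains build up, the sensors IRE1 (ERN1), PERK (EIF2AK3) and ATF6 start the unfolded protein response, in which ATF6 and the spliced form of XBP1 act on short promoter elements of chaperone genes. Osteoblasts, the bone-forming cells that osteosarcomas resemble, secrete collagen in bulk and have an extensive ER.

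The promoters below show those elements as the letters stand in the genome. The ER stress response element (ERSE, the letters CCAAT and CCACG with 9 bases of any kind between them), the second form (ERSE-II, ATTGG and CCACG with 1 base of any kind between them), the unfolded protein response element (UPRE, TGACGTGG) and the CARE of ATF4 targets (TGATGNAAT) were searched on both strands in the 250 bases before each start site, in RefSeq promoters of GRCh38.p14, in which 32 of the 34 genes (all but PDIA3 and DERL1) were matched. Capitals mark the matches, and each sequence is written 5′ to 3′ along its gene's strand. The first 3 carry an ERSE and the other 3 an ERSE-II, and they are shown because members with the same element had unlike changes.
HSPA5, chr9:125241344-125241593, minus strand: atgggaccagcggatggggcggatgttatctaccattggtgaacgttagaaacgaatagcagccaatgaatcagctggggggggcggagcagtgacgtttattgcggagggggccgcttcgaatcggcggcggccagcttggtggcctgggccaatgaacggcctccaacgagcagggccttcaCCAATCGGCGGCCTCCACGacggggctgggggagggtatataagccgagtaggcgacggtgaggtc
HSP90B1, chr12:103930160-103930409, plus strand: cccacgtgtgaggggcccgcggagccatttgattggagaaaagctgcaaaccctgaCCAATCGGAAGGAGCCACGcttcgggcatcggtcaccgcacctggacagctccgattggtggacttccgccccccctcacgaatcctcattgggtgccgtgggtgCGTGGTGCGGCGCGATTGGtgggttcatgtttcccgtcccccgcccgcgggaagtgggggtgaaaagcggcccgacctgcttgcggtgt
XBP1, chr22:28800570-28800819, minus strand: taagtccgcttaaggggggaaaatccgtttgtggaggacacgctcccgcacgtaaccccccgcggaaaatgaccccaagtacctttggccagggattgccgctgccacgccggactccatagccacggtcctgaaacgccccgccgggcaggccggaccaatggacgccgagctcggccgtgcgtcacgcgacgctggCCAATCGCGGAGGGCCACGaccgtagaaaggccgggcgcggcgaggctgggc
HYOU1, chr11:119057206-119057455, minus strand: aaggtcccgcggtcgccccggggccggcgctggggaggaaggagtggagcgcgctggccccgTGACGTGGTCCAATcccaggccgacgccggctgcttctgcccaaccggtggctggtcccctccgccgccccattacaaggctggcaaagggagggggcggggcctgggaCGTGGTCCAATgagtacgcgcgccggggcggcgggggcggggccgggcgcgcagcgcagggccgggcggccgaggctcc
HERPUD1, chr16:56931892-56932141, plus strand: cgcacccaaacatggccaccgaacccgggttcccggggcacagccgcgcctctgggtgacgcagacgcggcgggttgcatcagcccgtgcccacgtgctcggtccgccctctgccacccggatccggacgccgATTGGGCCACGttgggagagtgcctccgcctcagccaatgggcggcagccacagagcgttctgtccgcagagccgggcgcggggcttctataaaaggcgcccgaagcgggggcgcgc
SDF2L1, chr22:21642052-21642301, plus strand: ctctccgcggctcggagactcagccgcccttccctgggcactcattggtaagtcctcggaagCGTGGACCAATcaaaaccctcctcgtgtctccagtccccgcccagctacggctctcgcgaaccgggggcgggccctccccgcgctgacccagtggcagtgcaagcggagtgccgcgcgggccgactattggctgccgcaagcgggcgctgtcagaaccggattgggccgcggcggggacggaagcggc
The ERSE of HSPA5 began 66 bases before the start site and that of XBP1 52 bases before it. HSP90B1 had an ERSE on the gene's own strand from base 194 and another on the opposite strand from base 89. HYOU1 had an ERSE-II at bases 185 to 175 and at bases 79 to 69, both on the opposite strand. The farther one overlaps the gene's UPRE at bases 188 to 181, so that these capitals form 1 run.

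An ERSE stood before 7 of the 32 genes (HSPA5, HSP90B1, CALR, CANX, CRELD2, PDIA6 and XBP1), which is 21.9% of them, against 25 of 27305 genes with a RefSeq promoter, or 0.0916%. An ERSE-II stood before 3 (HYOU1, SDF2L1 and HERPUD1; 9.38%), against 18 of all genes (0.0659%). The UPRE letters were found before HYOU1, DNAJC10 and TXNDC5, against 213 of all genes (0.780%), and the CARE letters before none of the 32, against 298 of all genes (1.09%). These matches describe letters, not bound sites. The ERSE, ERSE-II and UPRE were picked as elements known from genes of this kind. Their larger shares among the members thus follow from the choice and are not a result of these data.

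In 143B the members that passed the test were all lower in the sgNAT10 libraries. Of 31 tested, 14 fell (45.2%) and 0 rose, where 25.4% of all 11419 tested genes fell and 12.9% rose. At an unadjusted p under 0.05 from the same limma fit, 16 were lower and 0 higher. Under quantile normalization 14 fell and 2 rose, CANX (0.85, adjusted p = 0.013) and SDF2L1 (0.66, 0.047). The median change of the members was -0.64 on the log2 scale, against -0.25 for all tested genes. In HOS the members went both ways. There 11 of 33 rose (33.3%) and 12 fell (36.4%) in the libraries labelled sgNAT10, where 45.5% of all 11957 tested genes rose and 23.0% fell. With the spread estimated from all 8 libraries together, where those of 143B vary more, 2 of 31 rose (HERPUD1 and SEC61A1) and 0 fell. That fit could not hold EIF2AK3 and DNAJB9, which were not tested in 143B. The members' median change in HOS was 0.087, against 0.19 for all genes. In RNA of whole cultures, fewer cells that express a gene and less RNA per cell cannot be told apart.

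**Figure D1:**
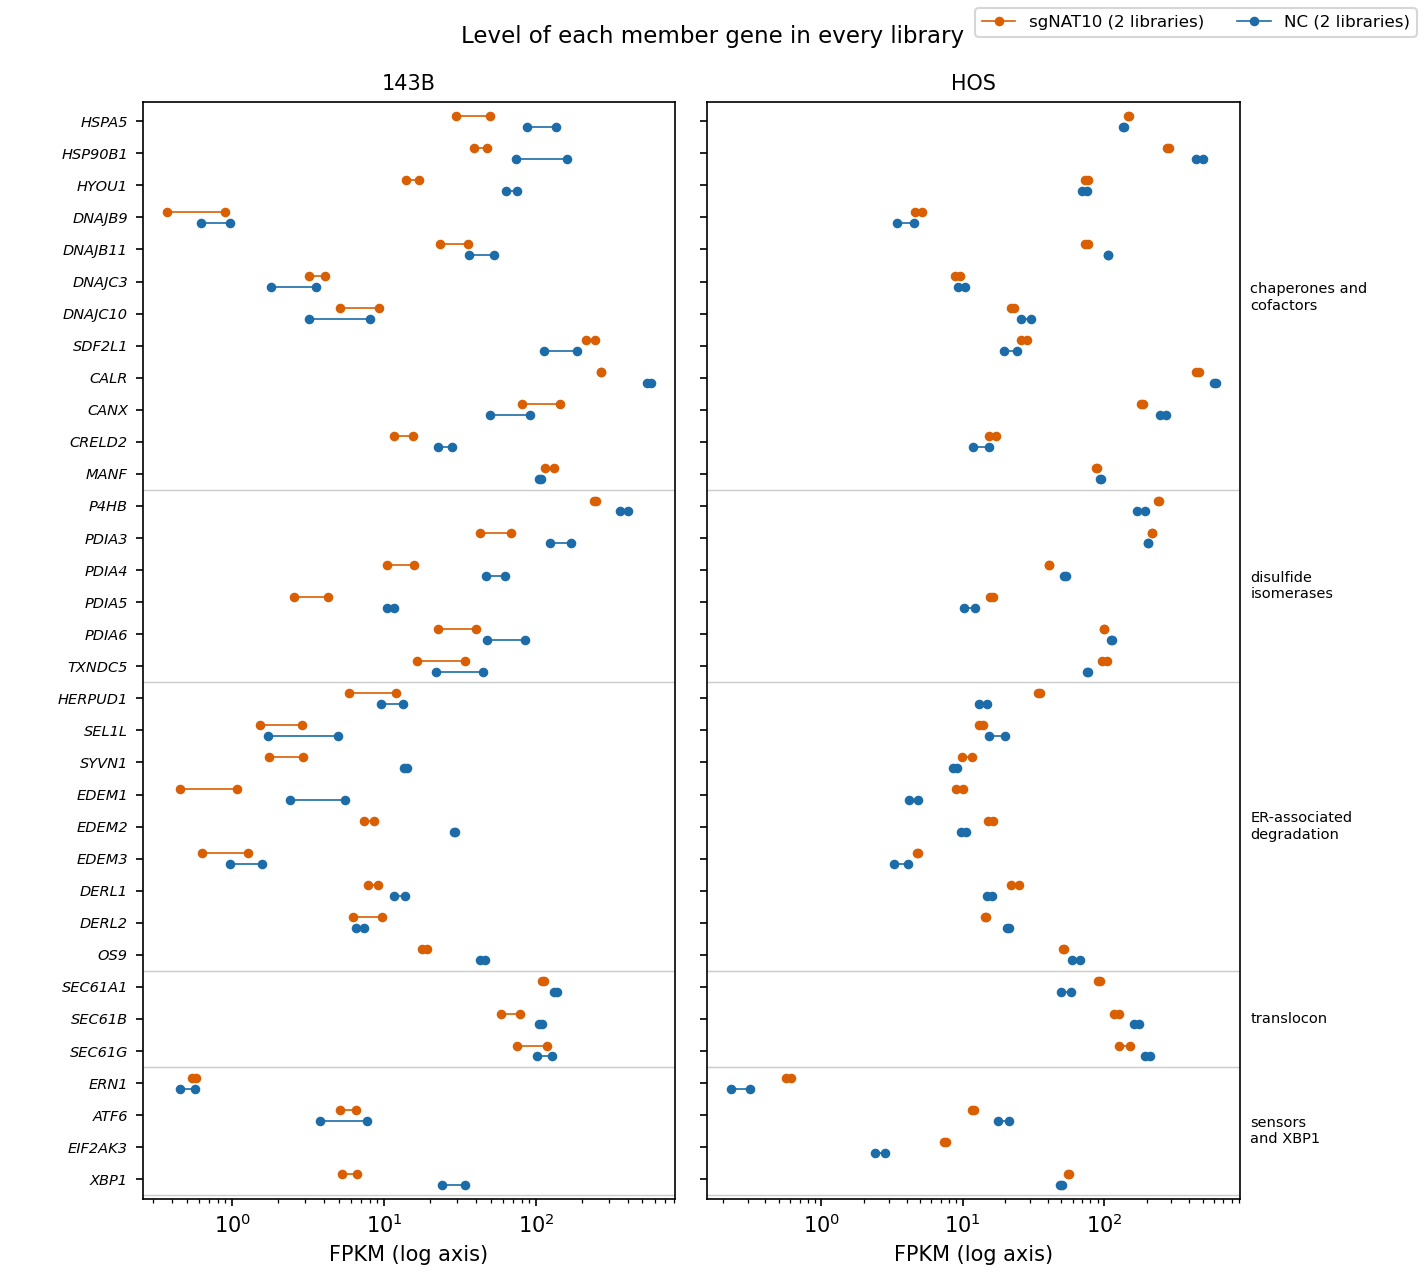
Level of each of the 34 genes in every library, in FPKM on a log axis, for 143B (left) and HOS (right), with sgNAT10 above NC in each row and a line joining the 2 libraries of a group. In 143B, HYOU1, PDIA4, SYVN1, EDEM2 and XBP1 show gaps between the groups that are wider than the gap between libraries, and in HOS the libraries of a group lie closer together.

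Taken as a sum, the members made up 0.181% and 0.226% of all listed FPKM in the 143B sgNAT10 libraries, against 0.358% and 0.433% in 143B NC. In HOS the shares were 0.561% and 0.551% in the libraries labelled sgNAT10 and 0.560% and 0.546% in NC. The 143B groups thus did not overlap, whereas in HOS the lower library labelled sgNAT10 lay between the NC libraries. Calreticulin (CALR), a calcium-binding lectin chaperone, had the highest level of all members in every library, with 15.2% to 24.3% of their sum.

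The libraries of 143B were less alike than those of HOS. Library 2 exceeded library 1 in 25 of 31 tested members in 143B sgNAT10, with a median gap of 0.48 (log2) against 0.15 over all genes, and in 24 of 31 in 143B NC, with 0.38 against 0.28. In HOS these medians were 0.0050 in the libraries labelled sgNAT10 and 0.026 in NC. The groups did not overlap for 21 of 31 members in 143B (67.7%, against 66.8% of all tested genes) and 30 of 33 in HOS (90.9%, against 83.1%). Without 143B sgNAT10 library 1, which leaves that group with 1 library assumed to vary like the other group, the 14 falls in 143B became 9.

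Among the chaperones, 5 of 11 tested in 143B fell and 0 rose, where 25.4% of all tested genes fell and 12.9% rose. HSPA5 (BiP), the Hsp70 of the ER lumen, had 29.7 and 49.8 FPKM in 143B sgNAT10, against 86.7 and 135 FPKM in NC (log2 change -1.47, SE 0.33, adjusted p = 0.0089). HYOU1, the large Hsp70 that serves BiP as nucleotide exchange factor, had 16.8 and 14.0 FPKM in 143B sgNAT10, against 63.5 and 74.3 FPKM in NC (log2 change -2.09, SE 0.26, adjusted p = 0.0014). For both genes every sgNAT10 library lay below every NC library (groups did not overlap, in either direction, for 66.8% of all genes tested in 143B). HSP90B1 (GRP94), the Hsp90 of the ER, had 39.1 and 47.1 FPKM in 143B sgNAT10, against 73.8 and 160.2 FPKM in NC (log2 change -1.32, SE 0.36, adjusted p = 0.019). Its NC libraries lay far apart, and without NC library 2 the change was -0.77 and no longer called (adjusted p = 0.061). CALR (-1.05) and CRELD2 (-0.86), a secreted protein induced by ER stress, also fell in 143B. The call of CALR was lost without either sgNAT10 library (adjusted p = 0.083 and 0.086) and under median-ratio scaling (0.21). That of CRELD2 was lost without sgNAT10 library 1 (0.11), sgNAT10 library 2 (0.32) or NC library 1 (0.14), and under 4 other settings.

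In HOS neither Hsp70 gene was called. HSPA5 had 148 and 149.98 FPKM in the HOS libraries labelled sgNAT10 and 137 and 137 FPKM in NC (log2 change 0.12, SE 0.082, adjusted p = 0.21). HYOU1 had 77.6 and 73.6 FPKM in the libraries labelled sgNAT10 and 69.8 and 76.3 FPKM in NC, and the groups overlapped (log2 change 0.050, adjusted p = 0.63). The contrast of the lines (143B minus HOS) was -1.59 for HSPA5 (adjusted p = 0.0081) and -2.14 for HYOU1 (adjusted p = 0.00025), in a joint fit over 10655 genes. HSP90B1 was lower in HOS too, with 277 and 289 FPKM in the libraries labelled sgNAT10 against 506 and 449 FPKM in NC (log2 change -0.75, SE 0.085, adjusted p = 1.2e-06), and the difference between the lines was not called (-0.57, adjusted p = 0.30).

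The other chaperones that fell in HOS were DNAJB11 (ERdj3), a J-domain cofactor of BiP, DNAJC10 (ERdj5), a J-domain reductase, and the lectin chaperones CALR and CANX. DNAJB11 had 73.7 and 77.0 FPKM in the HOS libraries labelled sgNAT10, against 106 and 106 FPKM in NC (log2 change -0.49, SE 0.085, adjusted p = 7.8e-05). CANX, calnexin, had 182 and 190 FPKM there, against 274 and 248 FPKM in NC (log2 change -0.49, SE 0.084, adjusted p = 8.3e-05). CALR changed by -0.42, a call lost under quantile normalization, which turned it to 0.0064, and DNAJC10 by -0.31, a call lost without library 1 (adjusted p = 0.18) or 2 (0.087) labelled sgNAT10 and brought to -0.19 without NC library 1. In 143B, CANX had 80.5 and 144 FPKM in sgNAT10 and 49.8 and 91.5 FPKM in NC, groups that overlapped, and DNAJB11 had 23.2 and 35.6 FPKM in sgNAT10 and 35.9 and 53.0 FPKM in NC. Neither passed (log2 change 0.67, adjusted p = 0.18, and -0.58, adjusted p = 0.17). With the replicate block DNAJB11 was called lower (adjusted p = 0.0025) and CANX higher (0.00032). CANX, however, was called higher in 143B without sgNAT10 library 1 (1.08, adjusted p = 0.033) and without NC library 2 (1.10, adjusted p = 0.0051).

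Only SDF2L1, which partners DNAJB11 in the BiP cycle, rose among the HOS chaperones (0.31, adjusted p = 0.017), a call lost without library 1 (adjusted p = 0.23) or 2 (0.058) labelled sgNAT10, without NC library 1 (0.090) and under 3 other settings. Its 143B change was 0.65 (adjusted p = 0.11), and it was 0.995 and called without NC library 1 (adjusted p = 0.011). MANF, a secreted protein that binds BiP, and DNAJC3, a J-domain cofactor of BiP, were called in neither line, with changes of 0.21 and 0.37 in 143B and -0.086 and -0.090 in HOS. DNAJB9 (ERdj4), which represses IRE1, was below 1 FPKM in all 143B libraries and had a change of 0.24 in HOS (adjusted p = 0.094).

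The disulfide isomerases gave the lowest median of the larger roles in 143B, -1.23, with 4 of 6 lower and 0 higher. Of all genes tested there, 25.4% were lower and 12.9% higher. PDIA4 (ERp72) had 10.4 and 15.7 FPKM in 143B sgNAT10, against 46.6 and 62.7 FPKM in NC (log2 change -1.9997, SE 0.30, adjusted p = 0.0024). PDIA3 (ERp57), the partner of calnexin and calreticulin, had 42.3 and 67.8 FPKM in 143B sgNAT10, against 123 and 170 FPKM in NC (log2 change -1.42, SE 0.30, adjusted p = 0.0072). The sgNAT10 and NC libraries of both genes were far apart. PDIA5 had 2.55 and 4.28 FPKM in 143B sgNAT10, against 10.4 and 11.5 FPKM in NC (log2 change -1.47, SE 0.36, adjusted p = 0.012), a call lost without sgNAT10 library 1 (adjusted p = 0.20). PDIA6 (P5) changed by -1.05 (adjusted p = 0.049) and was no longer called without sgNAT10 library 1 (0.26) or NC library 2 (0.14), nor under 4 other settings.

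In HOS, 3 of the 6 isomerases rose and 1 fell, where 45.5% of all tested genes rose and 23.0% fell. PDIA5 had 16.3 and 15.6 FPKM in the libraries labelled sgNAT10, against 10.2 and 12.3 FPKM in NC (log2 change 0.47, SE 0.11, adjusted p = 0.0011). P4HB, the archetypal PDI and also a subunit of collagen prolyl hydroxylase, had 243 and 243 FPKM there, against 171 and 194 FPKM in NC (log2 change 0.41, SE 0.086, adjusted p = 0.00045). TXNDC5 (ERp46) had 104 and 97.4 FPKM there, against 75.6 and 76.8 FPKM in NC (log2 change 0.40, SE 0.086, adjusted p = 0.00060). In all 3 the groups were apart, as was so for 83.1% of all genes tested in HOS. The call of TXNDC5 was lost without library 1 labelled sgNAT10 (change 0.35), and median-ratio scaling ended those of P4HB (adjusted p = 0.066) and TXNDC5 (0.098). After the length and GC correction TXNDC5 stood at 0.0026 (adjusted p = 0.97). PDIA4 was lower in HOS as well (-0.37, adjusted p = 0.0016), though not without library 1 labelled sgNAT10 (adjusted p = 0.061). In 143B, P4HB had 239 and 247 FPKM in sgNAT10 and 404 and 355 FPKM in NC (-0.64, adjusted p = 0.065). It was called lower there with a common sum (-0.97, adjusted p = 0.010), quantile normalization (-0.80, 0.0096), the replicate block (0.00083) and the shared spread (0.0080). Under median-ratio scaling it stood at -0.36 (adjusted p = 0.59), and after the length and GC correction at -0.18 (0.46). TXNDC5 had 16.4 and 33.99 FPKM in sgNAT10 and 22.0 and 44.7 FPKM in NC (-0.40, adjusted p = 0.49), and was called lower without NC library 1 (-0.89, adjusted p = 0.042). The lines differed in PDIA3 (-1.50, adjusted p = 0.0059), PDIA4 (-1.63, 0.0030), PDIA5 (-1.94, 0.0015) and P4HB (-1.05, 0.0042).

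**Figure D2:**
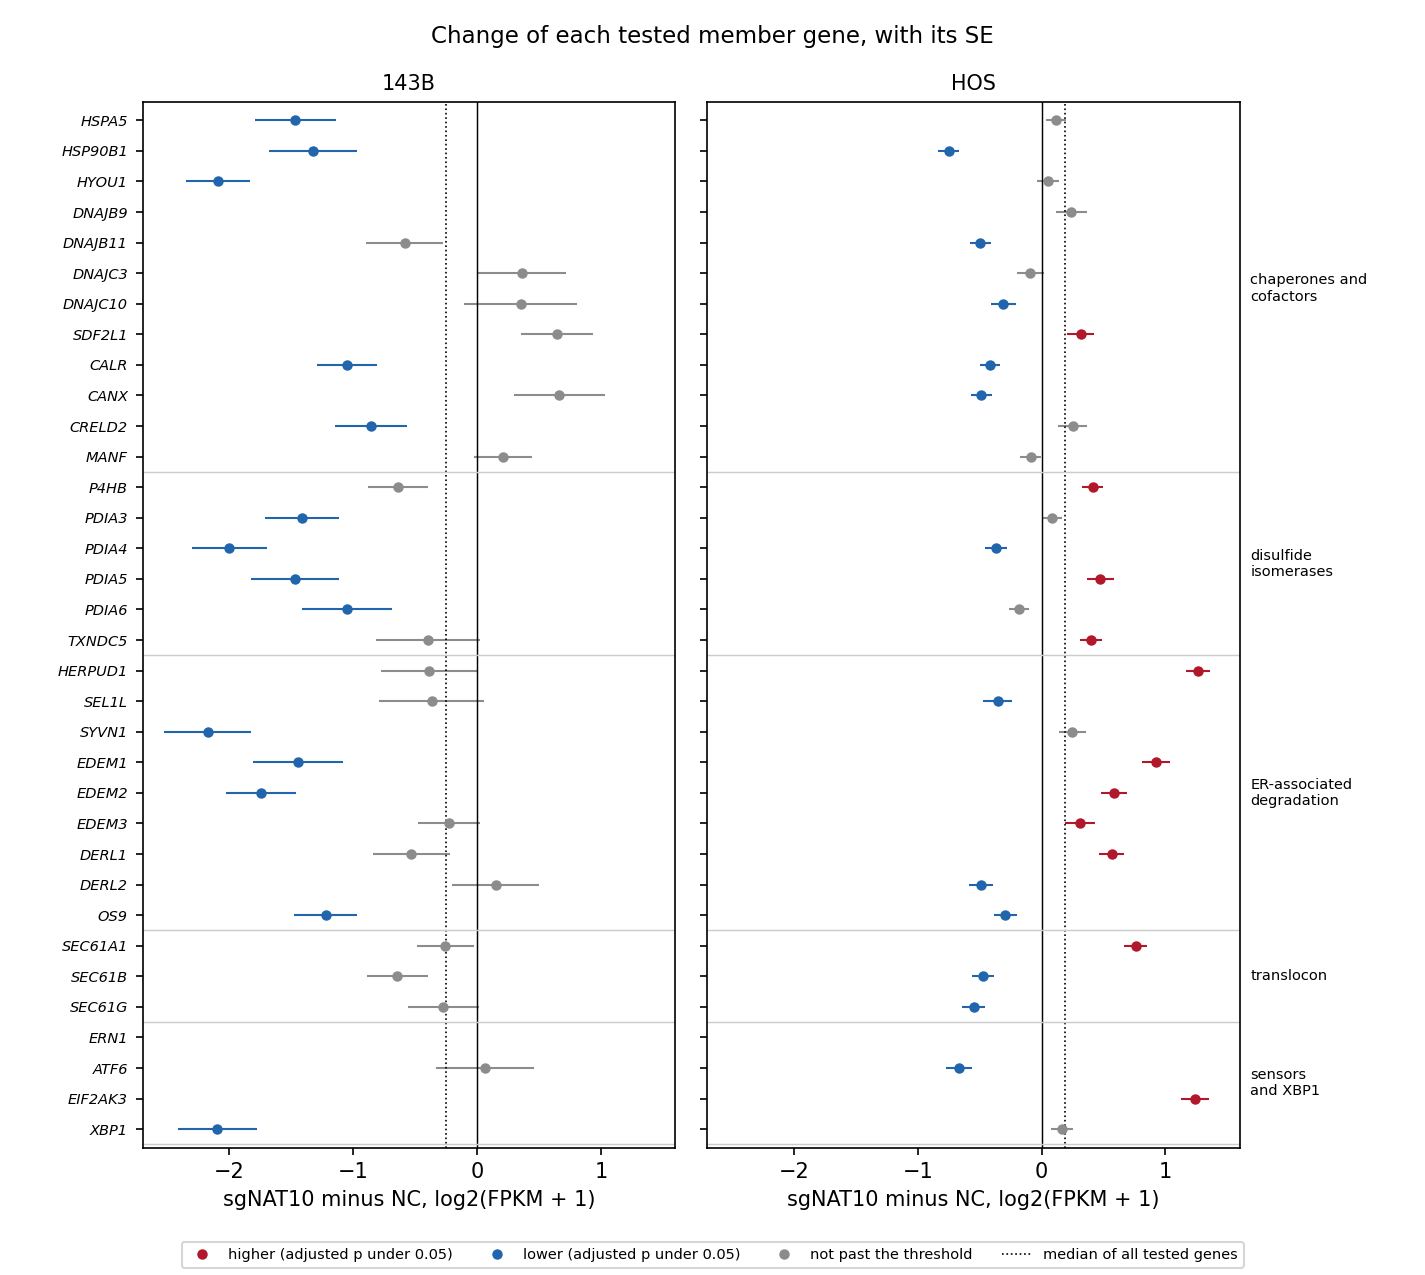
Change of each tested gene, sgNAT10 minus NC on the log2(FPKM + 1) scale, with its SE, by role from top to bottom; red marks higher, blue lower and grey no call, and the dotted line is the median of all tested genes. Every called gene of 143B lies on the lower side, down to -2.17 for SYVN1, whereas HOS holds 11 higher and 12 lower genes between -0.75 and 1.26.

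In ER-associated degradation, 4 of 9 genes fell in 143B, and in HOS 5 rose and 3 fell. Of all tested genes, 25.4% fell in 143B, and 45.5% rose and 23.0% fell in HOS. SYVN1 (HRD1) is the membrane ubiquitin ligase, SEL1L its adaptor, HERPUD1 a membrane scaffold of the same complex, and OS9 and the EDEM proteins the readers and trimmers of mannose on doomed glycoproteins. In 143B, SYVN1 had 1.74 and 2.93 FPKM in sgNAT10, against 13.4 and 14.2 FPKM in NC (log2 change -2.17, SE 0.35, adjusted p = 0.0029). EDEM2 had 7.35 and 8.60 FPKM in sgNAT10, against 29.1 and 28.8 FPKM in NC (log2 change -1.74, SE 0.28, adjusted p = 0.0029). EDEM1 had 0.45 and 1.07 FPKM in sgNAT10, against 2.41 and 5.55 FPKM in NC (log2 change -1.45, SE 0.36, adjusted p = 0.014), a call lost without sgNAT10 library 1 (adjusted p = 0.15). These 3 genes had no overlap between groups, as was so for 66.8% of all genes tested in 143B. OS9 was the fourth of the 9 to fall (-1.22, adjusted p = 0.0066).

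HERPUD1, the scaffold, was not called in 143B. It had 5.84 and 11.9 FPKM in sgNAT10 and 9.55 and 13.3 FPKM in NC, groups that overlapped (log2 change -0.38, adjusted p = 0.47). In HOS it was the member with the largest change on the log2(FPKM + 1) scale, with 35.5 and 34.3 FPKM in the libraries labelled sgNAT10, against 13.1 and 14.9 FPKM in NC (log2 change 1.26, SE 0.099, adjusted p = 3.1e-08). With a pseudocount of 0.1 its change was 1.32, below the 1.49 of EIF2AK3, a gene of lower level. EDEM1 and EDEM2 also rose there. EDEM1 had 9.98 and 8.91 FPKM in the libraries labelled sgNAT10, against 4.86 and 4.14 FPKM in NC (log2 change 0.93, SE 0.11, adjusted p = 2.9e-06), and EDEM2 had 16.2 and 15.1 FPKM, against 9.79 and 10.5 FPKM in NC (log2 change 0.58, SE 0.10, adjusted p = 9.7e-05). SYVN1 had 11.6 and 9.82 FPKM there and 8.47 and 9.17 FPKM in NC (log2 change 0.25, adjusted p = 0.057), and it was called higher without NC library 2 (adjusted p = 0.023).

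Of the rest, DERL1 rose in HOS (0.57, adjusted p = 0.00013) and its paralogue DERL2 fell (-0.49, adjusted p = 0.00031); both are derlins, membrane proteins of the export channel. EDEM3 rose (0.31, adjusted p = 0.029), SEL1L fell (-0.35, 0.013) and OS9 fell (-0.29, 0.0097). These last 3 calls were all lost without library 1 labelled sgNAT10 (adjusted p = 0.13, 0.14 and 0.13) and without library 2 (0.13, 0.054 and 0.11), that of EDEM3 also without NC library 2 (0.16) and that of SEL1L without NC library 1 (0.082). The call of EDEM3 was also lost under median-ratio scaling (0.12, adjusted p = 0.39) and quantile normalization (0.018, 0.90), and those of SEL1L (-0.15, 0.23) and OS9 (-0.083, 0.43) with a common sum. In 143B, DERL1, DERL2, EDEM3 and SEL1L had changes between -0.53 and 0.15 with no call, and SEL1L was called lower without NC library 1 (-0.93, adjusted p = 0.030). The difference between the lines was called for 6 of them: SYVN1 (-2.42, adjusted p = 0.00043), EDEM1 (-2.37, 0.0020), EDEM2 (-2.33, 0.00021), HERPUD1 (-1.65, 0.011), DERL1 (-1.10, 0.0099) and OS9 (-0.93, 0.0097). That of HERPUD1 was lost without HOS NC library 1 (adjusted p = 0.051), that of DERL1 without HOS NC library 1 (0.054) or library 2 labelled sgNAT10 (0.070), and that of OS9 without either HOS library labelled sgNAT10 (0.058 and 0.057) or NC library 1 (0.054).

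The 3 subunits of the SEC61 channel were all called in HOS, but in opposite directions. SEC61A1, which forms the pore, had 93.4 and 91.0 FPKM in the HOS libraries labelled sgNAT10, against 50.0 and 58.5 FPKM in NC (log2 change 0.76, SE 0.094, adjusted p = 3.0e-06). SEC61B, a small tail-anchored subunit, had 128 and 117 FPKM there, against 163 and 178 FPKM in NC (log2 change -0.47, SE 0.088, adjusted p = 0.00016). SEC61G, the other small subunit, had 127 and 152 FPKM there, against 195 and 212 FPKM in NC (log2 change -0.55, SE 0.095, adjusted p = 8.3e-05). No group overlapped in these 3, as was so for 83.1% of all genes tested in HOS. After correction for length and GC content of transcripts SEC61B stood at -0.036 (adjusted p = 0.69) and SEC61G at 0.14 (0.097), while SEC61A1 remained called at 0.36. The annotated transcripts of SEC61B and SEC61G average 566 and 541 bases, against 2316 for SEC61A1.

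In 143B no subunit was called. SEC61A1 had 113 and 109 FPKM in sgNAT10, against 136 and 130 FPKM in NC (log2 change -0.25, SE 0.23, adjusted p = 0.41). With a common sum it was called lower (-0.59, adjusted p = 0.044). SEC61B had 59.0 and 78.3 FPKM in sgNAT10, against 104 and 109 FPKM in NC (log2 change -0.64, SE 0.25, adjusted p = 0.070). It was called lower with a common sum (-0.97, adjusted p = 0.019), the replicate block (0.00052) and the shared spread (0.015). Under median-ratio scaling (-0.36, adjusted p = 0.52) and quantile normalization (-0.44, 0.22) it was not. SEC61G had 74.2 and 118 FPKM in sgNAT10 and 101 and 127 FPKM in NC, which overlapped (log2 change -0.27, SE 0.29, adjusted p = 0.49). Here the same correction acted the other way: SEC61B was called at -1.23 (adjusted p = 0.00011) and SEC61G at -1.16 (0.00021), and SEC61A1 turned to 0.22. The lines differed in SEC61A1 (-1.01, adjusted p = 0.0053), which the correction brought to -0.14 (adjusted p = 0.61). As deposited, the line differences of SEC61B (-0.17, adjusted p = 0.62) and SEC61G (0.28, 0.53) were not called. After the correction, however, their changes in HOS were -0.036 and 0.14, against the -1.23 and -1.16 in 143B.

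Of the sensors, ERN1 had the lowest level in HOS, and EIF2AK3 was not listed in 143B. ERN1 (IRE1), the kinase and RNase that splices XBP1 mRNA, stayed below 1 FPKM in every library: 0.54 and 0.58 FPKM in 143B sgNAT10, 0.45 and 0.57 FPKM in 143B NC, 0.61 and 0.56 FPKM in the HOS libraries labelled sgNAT10 and 0.31 and 0.23 FPKM in HOS NC. It was therefore not tested. A fit of HOS without the filter gave 0.32 (SE 0.10, adjusted p = 0.015). That value cannot decide on a rise of ERN1, since listing required more than 0.5 FPKM in 2 libraries. In HOS only the libraries labelled sgNAT10 met this, so ERN1 was listed through the group where it was higher. EIF2AK3 (PERK), the kinase that phosphorylates eIF2α, had 7.34 and 7.65 FPKM in the HOS libraries labelled sgNAT10, against 2.82 and 2.39 FPKM in NC (log2 change 1.24, SE 0.11, adjusted p = 1.4e-07). ATF6, the membrane-bound transcription factor that is cut in the Golgi, had 12.1 and 11.7 FPKM there, against 21.1 and 17.9 FPKM in NC (log2 change -0.67, SE 0.11, adjusted p = 3.7e-05). EIF2AK3 and ATF6 thus moved in opposite directions in HOS. Their groups did not overlap, as was so for 83.1% of all genes tested there. In 143B, ATF6 had 5.09 and 6.52 FPKM in sgNAT10 and 3.78 and 7.72 FPKM in NC, which overlapped (log2 change 0.068, SE 0.40, adjusted p = 0.91).

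XBP1, the transcription factor whose mRNA IRE1 splices, had 5.25 and 6.65 FPKM in 143B sgNAT10, against 23.9 and 34.1 FPKM in NC (log2 change -2.10, SE 0.32, adjusted p = 0.0024). In HOS it had 56.2 and 55.5 FPKM in the libraries labelled sgNAT10 and 49.2 and 50.1 FPKM in NC (log2 change 0.17, SE 0.087, adjusted p = 0.10), and it was called higher without NC library 2 (0.18, adjusted p = 0.029). The lines differed (-2.26, adjusted p = 0.00043). These gene-level values do not separate spliced from unspliced XBP1 mRNA.

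Across both lines, 31 members were tested for a difference between them. In 16 (51.6%) the 143B change was lower than the HOS change and in 0 higher, where 36.2% of all 10655 tested genes were lower and 12.9% higher. Under median-ratio scaling 10 were lower and 5 higher, where 25.3% of all genes were lower and 25.1% higher, and under quantile normalization 13 were lower and 5 higher. Under both scalings the 5 were CANX, ATF6, DNAJC3, DERL2 and DNAJC10. Median-ratio scaling ended the differences of CALR (-0.12, adjusted p = 0.79), CRELD2 (-0.62, 0.21), P4HB (-0.54, 0.23), DERL1 (-0.62, 0.11), OS9 (-0.43, 0.27) and SEC61A1 (-0.51, 0.23), and quantile normalization those of CRELD2 (adjusted p = 0.18), DERL1 (0.076) and OS9 (0.0503). The length and GC correction ended those of CALR (-0.075, adjusted p = 0.72), CRELD2 (-0.21, 0.33), OS9 (0.034, 0.86) and SEC61A1. The median difference as deposited was -0.87, against -0.44 over all genes. By role, 4 of 11 chaperones, 4 of 6 isomerases, 6 of 9 degradation genes, 1 of 3 translocon subunits and 1 of the 2 tested sensor genes were lower. Of the 31, 4 fell in both lines (HSP90B1, CALR, PDIA4 and OS9), 3 fell in 143B and rose in HOS (PDIA5, EDEM1 and EDEM2), 7 fell in 143B with no call in HOS, 7 rose and 8 fell in HOS with no call in 143B, and 2 were called in neither. The HOS falls of HSP90B1, CALR, PDIA4 and OS9 were no longer called with the shared spread. Those of PDIA4 and OS9 were also lost with a common sum, and that of CALR under quantile normalization. At an unadjusted p under 0.05, 1 member was higher, CANX, with 1.15 (adjusted p = 0.061). It passed without 143B sgNAT10 library 1 (1.57, adjusted p = 0.017) or NC library 2 (1.59, adjusted p = 0.0076). Without 143B NC library 2, ATF6, DNAJC3 and DNAJC10 passed with it.

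Ratios within a library do not change when the whole library is rescaled by a factor, though the length and GC correction can move them. From a larger set of pairs, 4 are given with no test, chosen after their values were seen to show the unequal changes. SEC61A1 over SEC61B was 1.92 and 1.40 in 143B sgNAT10, against 1.31 and 1.19 in NC, and 0.727 and 0.779 in the HOS libraries labelled sgNAT10, against 0.306 and 0.328 in NC. These ratios are uncorrected, and after the correction the HOS changes of SEC61A1 and SEC61B were 0.36 and -0.036. HERPUD1 over SYVN1 was 3.36 and 4.08 in 143B sgNAT10, against 0.713 and 0.936 in NC, and 3.08 and 3.49 in the HOS libraries labelled sgNAT10, against 1.55 and 1.62 in NC. The lines differed in the gene that changed. In 143B SYVN1 fell (-2.17) and HERPUD1 was not called (-0.38), and in HOS HERPUD1 rose (1.26) and SYVN1 was not called (0.25). HSP90B1 over HSPA5 was 1.32 and 0.947 in 143B sgNAT10 and 0.852 and 1.19 in NC, which overlapped. In HOS this ratio was 1.87 and 1.93 in the libraries labelled sgNAT10, against 3.68 and 3.27 in NC. EIF2AK3 over ATF6 was 0.609 and 0.654 in the HOS libraries labelled sgNAT10, against 0.134 in both NC libraries.

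**Figure D3:**
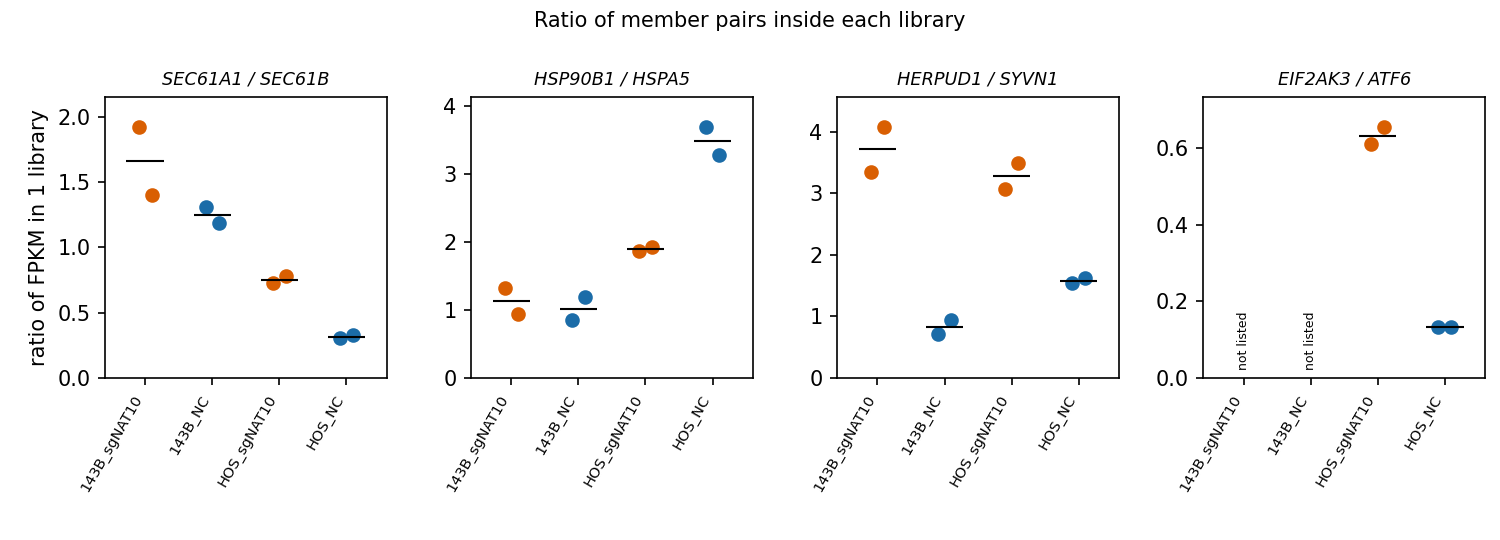
Ratio of FPKM of 4 pairs of genes within each library, as points, with the mean of the 2 libraries as a line; EIF2AK3 is not listed in 143B. HERPUD1 over SYVN1 lies between 3.08 and 4.08 in the 4 sgNAT10 libraries of both lines and between 0.713 and 1.62 in the 4 NC libraries. The pairs were chosen after their values were seen. The called gene of this pair was SYVN1 in 143B, which fell, and HERPUD1 in HOS, which rose.

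Changes went with base composition over all genes, and in HOS with transcript length too. Between the change and the GC content of a gene's transcripts, Spearman's rho across genes was -0.39 over 11281 genes and -0.38 over the 31 members in 143B, and 0.32 over 11826 genes and 0.29 over the 33 members in HOS. Between the change and transcript length, rho was -0.033 over all genes and -0.015 over the members in 143B. In HOS it was 0.31 over all genes and 0.096 over the members. The correction took length and GC content together, so their parts in what it moved were not separated. Genes are not independent replicates, and the values describe these libraries. After the length and GC correction, 16 members were lower and 3 higher in 143B. The higher ones were SDF2L1 (1.09, adjusted p = 0.00072), CANX (0.63, 0.027) and MANF (0.57, 0.021). In 143B, XBP1 (-1.84), PDIA4 (-1.53), HSPA5 (-1.48), HYOU1 (-1.45) and SYVN1 (-1.45) remained called, and CRELD2 did not (-0.19, adjusted p = 0.40). In HOS, 11 were higher and 15 lower after the correction. HERPUD1 (1.25) and EIF2AK3 (1.10) remained called, and HSPA5 (-0.20, adjusted p = 0.0048), HYOU1 (-0.33, 0.00016) and SYVN1 (-0.21, 0.024) turned lower. With a common sum these 3 were instead called higher, HSPA5 at 0.33 (adjusted p = 0.00049), HYOU1 at 0.26 (0.010) and SYVN1 at 0.44 (0.00086), and HSPA5 was also called higher under quantile normalization (0.23, 0.014).

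**Figure D4:**
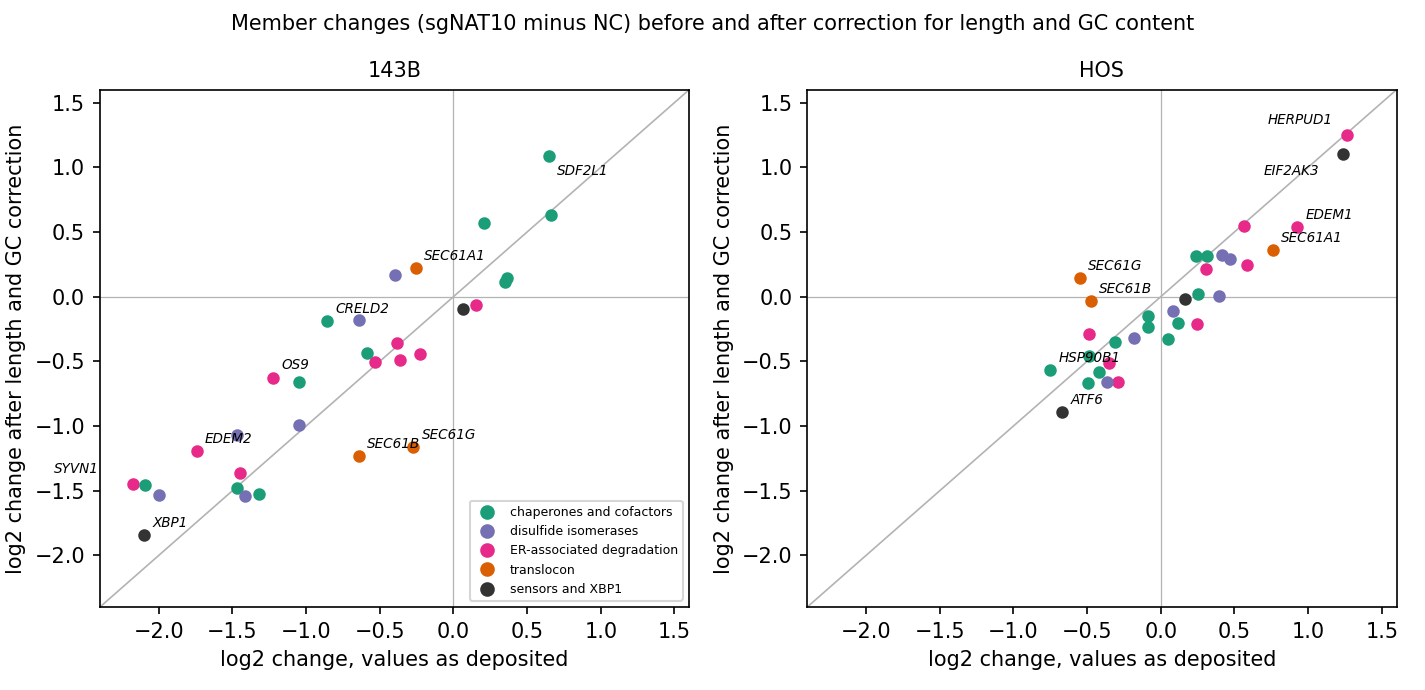
Change of each tested gene as deposited (x axis) and after correction for length and GC content of transcripts (y axis), sgNAT10 minus NC in log2 units, coloured by role, with the line of equal values. SEC61G lies furthest from that line in both panels, below it in 143B (at -1.16) and above it in HOS (at 0.14), and SEC61B lies on the same side (at -1.23 and -0.036).

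The balance of calls in HOS differed between scalings. As deposited, the median change of all genes there was 0.19. Rescaling each library to a common sum brought it to 0.37 and gave 18 members higher and 8 lower. Median-ratio scaling brought it to -0.012 and gave 7 higher and 15 lower, and quantile normalization brought it to 0.017 with 11 higher and 12 lower. Relative to the median of all genes, the members' median lay between -0.13 and 0.0011 in HOS under these scalings and as deposited, and between -0.43 and -0.35 in 143B. HERPUD1, SEC61A1 and EIF2AK3 were called higher in HOS under every alternative that could be fitted for them. In 143B, HSPA5, HYOU1, PDIA3, PDIA4, SYVN1, EDEM2, OS9 and XBP1 were called lower under all 15 alternatives.

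Members with the promoter elements shown above did not all change alike. Of the 10 members with an ERSE or ERSE-II, 7 fell in 143B, with a median of -1.05, where 6 of 19 tested members without either fell, with a median of -0.40. In HOS, 2 of the 10 rose and 3 fell (median 0.084), and of 21 tested members without either 8 rose and 9 fell (median -0.086). Of all tested genes, 25.4% fell in 143B, and 45.5% rose and 23.0% fell in HOS. Whether the element plays a part was not tested. HYOU1, HERPUD1 and SDF2L1 share the ERSE-II, yet their changes were -2.09, -0.38 and 0.65 in 143B, of which only the first was called. HSPA5 and HSP90B1, both with an ERSE, had changes of 0.12 and -0.75 in HOS.

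A wider list of 85 further ER genes, in 5 sublists, shows what surrounded the members. In 143B, 9 of 83 tested rose (10.8%) and 16 fell (19.3%), with a median of -0.037, where 12.9% of all tested genes rose and 25.4% fell. Under quantile normalization 20 rose and 15 fell, and with a common sum 6 rose and 26 fell. The rises became 5 without sgNAT10 library 2 and 14 without NC library 2, and the falls 7 without either sgNAT10 library. Among 21 import genes 4 rose and 4 fell. SSR4, a subunit of the translocon-associated complex, had 1022 and 1053 FPKM in 143B sgNAT10, against 359 and 231 FPKM in NC (log2 change 1.84, adjusted p = 0.0028). SRPRA, the receptor of the signal recognition particle, had 6.64 and 5.02 FPKM in sgNAT10, against 38.1 and 42.6 FPKM in NC (log2 change -2.61, adjusted p = 0.0011). SRP72 (1.59) of the particle itself rose and SPCS1 (-1.75) of the signal peptidase fell. Of 14 glycosylation genes 3 rose, led by MAGT1 (1.78) and UGGT1 (1.26), which reglucosylates misfolded glycoproteins, and 4 fell, led by GANAB (-1.86) and MOGS (-0.94), the glucosidases that trim new glycans. Of 13 folding genes DNAJC1 (1.37) rose and ERP29 (-0.82) fell, and of 21 degradation genes UBE2G2 (1.66), a ubiquitin-conjugating enzyme of this pathway, rose and 0 fell (1 at an unadjusted p under 0.05). Of 14 stress genes 7 fell and 0 rose (8 and 0 unadjusted, by limma), with the largest falls in ATF6B (-1.55) and ATF4 (-1.52), the transcription factor downstream of PERK. Leaving out sgNAT10 library 1, sgNAT10 library 2 or NC library 1 ended the calls of UGGT1 (adjusted p = 0.11, 0.28 and 0.054), MOGS (0.070, 0.17 and 0.094) and ERP29 (0.076, 0.17 and 0.060), and leaving out sgNAT10 library 2 that of DNAJC1 (0.14). Median-ratio scaling and quantile normalization ended the calls of MOGS (adjusted p = 0.16 and 0.12) and ERP29 (0.32 and 0.066), and a common sum that of UGGT1 (0.092). After the length and GC correction MOGS stood at -0.11 (adjusted p = 0.62).

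In HOS, 33 of 84 tested genes of the wider list rose (39.3%) and 27 fell (32.1%), with a median of 0.057, where 45.5% of all tested genes rose and 23.0% fell. With a common sum 47 rose and 15 fell, with median-ratio scaling 23 rose and 38 fell, and with the spread shared by all 8 libraries 7 rose and 2 fell. The falls became 16 without library 1 labelled sgNAT10. Of 15 stress genes 11 rose and 1 fell. ATF3, a stress-induced transcription factor, had 10.4 and 10.7 FPKM in the libraries labelled sgNAT10, against 2.46 and 3.02 FPKM in NC (log2 change 1.63, adjusted p = 1.1e-08). PPP1R15B, a regulatory subunit of the eIF2α phosphatase, had 18.6 and 17.01 FPKM there, against 6.43 and 6.32 FPKM in NC (log2 change 1.35, adjusted p = 2.6e-08), and ATF4 was the gene that fell (-0.25, adjusted p = 0.0086), a call lost without library 1 (0.093) or 2 (0.062) labelled sgNAT10, with a common sum (-0.043, 0.62) and under quantile normalization, which turned it to 0.018. Of 21 import genes 13 fell and 4 rose. The largest falls there were SEC11A (-0.79) of the signal peptidase and SRP72 (-0.74), and the largest rises SSR3 (0.71) and SPCS1 (0.39), so that SRP72 and SPCS1 were called in opposite directions in the lines, though the HOS call of SPCS1 was lost under median-ratio scaling (0.17, adjusted p = 0.11). Of 14 glycosylation genes 7 rose (MOGS 0.67, MAGT1 0.55) and 3 fell (STT3A -0.62, DAD1 -0.53, both of the oligosaccharyltransferase). After the length and GC correction DAD1 stood at -0.083 (adjusted p = 0.16). Of 13 folding genes 2 rose, the disulfide oxidase ERO1A (0.93) and PRDX4 (0.50), and 5 fell, led by HSPA13 (-0.82) and PPIB (-0.74). Of 21 degradation genes 9 rose, among them TXNDC11 (0.78), and 5 fell, led by UBXN4 (-0.51) and UFD1 (-0.50).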

How the data were processed

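Poly(A) RNA of 143B and HOS cells was measured in 8 libraries, 2 for each of 4 groups (143B sgNAT10, 143B NC, HOS sgNAT10 and HOS NC), grouped by the labels. The authors deposited FPKM values, 1 table for each line, normalized by them before deposit. Per the submitters' processing notes, the tools were RSEM, Bowtie2 and DESeq2 on build GRCh38, with no role or version, and no source used here names the annotation. Every gene of a table exceeds 0.5 FPKM in 2 libraries or more. No counts are given and low values showed no steps of whole reads, so the depth is unknown and intervals of counting error could not be had. Summed over the listed genes, a library held 484793 to 798137 FPKM.

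From the deposited FPKM, log2(FPKM + 1) was computed, which understates changes of low genes. Genes at 1 FPKM or more in 2 or more of a line's 4 libraries were fitted with limma 3.58.1 in R 4.3.3 (intensity trend, two-sided, Benjamini-Hochberg over all tested genes, threshold 0.05), each line by itself, since the tables were normalized separately. A joint fit of all 8 libraries gave the line difference, 143B minus HOS. An exact permutation test of 2 libraries against 2 cannot go below p = 0.33. The fits were tested on simulated data. Transcript length and GC content were means over a gene's protein-coding transcripts in GENCODE release 29, matched by name for 98.4% (143B) and 98.5% (HOS) of the listed genes. Promoters came from RefSeq (GRCh38.p14). Where a fit leaves out 1 library, the remaining one is assumed to vary like the other group. The protein sequences of the members were not used here.

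The members, the wider list and the markers were chosen with earlier results of these data known. Values per library are given for the members of each role with the 3 largest called changes in either line, and for every translocon and sensor member. Of the wider list, up to 2 called rises and 2 called falls of each sublist and line are named, except a gene that is not reported here. The alternatives were a pseudocount of 0.1 or 5, no filter, quantile normalization, median-ratio scaling, a common sum, a spline correction (4 degrees of freedom) for length and GC content, a replicate block, both together, no trend, 1 spread estimated over all 8 libraries, and the removal of 1 library at a time. A crossed block in HOS was added after seeing the data.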

Additional observations from a re-analysis of the deposited data

Results flagged for a closer look

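The change differed between the lines, by the contrast 143B minus HOS in the joint limma fit, for 16 of 31 tested members, all with a lower change in 143B. Of all genes in that fit, 36.2% were lower and 12.9% higher. Among chaperones these were HYOU1 (-2.14, adjusted p = 0.00025), HSPA5 (-1.59, 0.0081), CRELD2 (-1.11, 0.018) and CALR (-0.63, 0.030). Among disulfide isomerases they were PDIA5 (-1.94, 0.0015), PDIA4 (-1.63, 0.0030), PDIA3 (-1.50, 0.0059) and P4HB (-1.05, 0.0042). Among degradation genes they were SYVN1 (-2.42, 0.00043), EDEM1 (-2.37, 0.0020), EDEM2 (-2.33, 0.00021), HERPUD1 (-1.65, 0.011), DERL1 (-1.10, 0.0099) and OS9 (-0.93, 0.0097). The others were SEC61A1 (-1.01, 0.0053) and XBP1 (-2.26, 0.00043). For PDIA5, EDEM1 and EDEM2 the change was called in both lines, lower in 143B and higher in HOS. The difference of CALR was lost without any 1 of the 4 HOS libraries (adjusted p between 0.092 and 0.15), and that of CRELD2 without 143B sgNAT10 library 2 (0.053), HOS library 1 (0.088) or 2 (0.053) labelled sgNAT10, or HOS NC library 1 (0.089). Median-ratio scaling ended the differences of CALR, CRELD2, P4HB, DERL1, OS9 and SEC61A1 (adjusted p between 0.11 and 0.79), quantile normalization those of CRELD2, DERL1 and OS9 (between 0.0503 and 0.18), and the length and GC correction those of CALR, CRELD2, OS9 and SEC61A1 (between 0.33 and 0.86). The difference stayed called under all 18 alternatives for HSPA5, HYOU1, PDIA3, PDIA4, PDIA5, SYVN1, EDEM1, EDEM2 and XBP1. The median difference over all genes was -0.44, and the mRNA of NAT10 was higher in the HOS libraries labelled sgNAT10 (0.35, or -0.026 after the correction).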

How the results depend on the processing

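The 14 falls and 0 rises of members in 143B were 9 to 16 falls and 0 to 1 rises when 1 library was left out. The rises were 2 under quantile normalization (CANX and SDF2L1), 3 with the length and GC correction, 2 with the replicate block, 3 with the replicate block and correction together, and 1 with the shared spread (SDF2L1). In HOS the 11 rises and 12 falls each became 8 to 13 with 1 library left out. The rises were 18 with a common sum, 7 with median-ratio scaling and 2 with the shared spread, and the falls 0 with the shared spread, a fit without EIF2AK3 and DNAJB9. The line difference (16 lower, 0 higher) gave 11 to 19 lower and 0 to 4 higher with 1 library left out, and 10 lower with median-ratio scaling. Higher differences numbered 1 with a pseudocount of 5, 5 with median-ratio scaling, 5 with quantile normalization, 4 with the correction, 4 with the replicate block and 5 with both. On the wider list, the 9 rises and 16 falls in 143B became 5 to 14 and 7 to 17 with 1 library left out. Those rises were 17 with median-ratio scaling, 20 with quantile normalization, 20 with the correction, 21 with the replicate block, 25 with both and 15 with the shared spread, and those falls 26 with a common sum and 31 with the replicate block. In HOS its 33 rises and 27 falls became 27 to 36 and 16 to 32 with 1 library left out, the rises 7 and the falls 2 with the shared spread, and the falls 15 with a common sum. The cause of these moves was not tested, apart from the fewer samples of the fits that leave 1 out. Labelled numbers are shared by only 2 libraries in each group. Deviations of same-numbered libraries correlated at 0.605 over genes in 143B and at -0.106 in HOS, and with 2 pairs a line this does not show pairing. The replicate block gave 2 higher and 19 lower members in 143B and 11 and 12 in HOS, and a crossed block 13 and 12 in HOS. With the correction, alone or with the block, signs turned in HOS for XBP1 (-0.021), NAT10 (-0.026), PDIA3 (-0.11), HSPA5 (-0.20), SYVN1 (-0.21), HYOU1 (-0.33) and SEC61G (0.14), and in 143B for DERL2 (-0.067), ATF6 (-0.096), TXNDC5 (0.17) and SEC61A1 (0.22). Among members with a called line difference, that of OS9 turned (0.034). Sign turns of line differences that were not called are not listed here. Median-ratio scaling turned XBP1 (-0.059), HSPA5 (-0.11), PDIA3 (-0.14) and HYOU1 (-0.18) in HOS, and SEC61G (0.0084) and SEC61A1 (0.025) in 143B. Quantile normalization turned SYVN1 (-0.026), DNAJB9 (-0.054), CALR (0.0064), MANF (0.036) and ATF4 (0.018) in HOS. A common sum turned MANF (-0.12), DERL2 (-0.14) and ATF6 (-0.22) in 143B, and PDIA6 (0.030), DNAJC3 (0.10) and MANF (0.12) in HOS. Leaving out 1 library turned these uncalled genes in 143B, with the lowest and highest value of each: DNAJC10 (-0.21 and 0.91), ATF6 (-0.37 and 0.50), TXNDC5 (-0.90 and 0.11), SEL1L (-0.93 and 0.20), EDEM3 (-0.46 and 0.016), SEC61G (-0.60 and 0.060), HERPUD1 (-0.84 and 0.076) and DERL2 (-0.13 and 0.43), and HYOU1 in HOS (-0.013 and 0.11). Values of NAT10 and the tested members under the alternatives were also counted. In 143B, 395 kept their direction and their side of the threshold, 24 turned sign, 38 gained a call and 23 lost it. In HOS, 436 kept both, 26 turned sign, 27 gained a call and 53 lost it. For the line difference only NAT10, the called members, HSP90B1 and CANX were counted. There 299 kept both, 2 turned sign, 12 gained a call and 29 lost it. Unknown depth limits what can be said of the genes near 1 FPKM.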
